A study of Homo sapiens with 47 samples.

Results

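PC3 cells, an established human prostate cancer line, were compared after transduction with an empty vector or with an SLC6A4 overexpression construct, and each line was profiled by ChIP-seq for H3K4me3 and for H3K4me3Q5ser. The question was where the serotonylated form of the mark changed by more, or by less, than H3K4me3 itself. It used 12 of the 47 libraries of the series, 3 for each of the 4 combinations of line (empty vector, SLC6A4) and antibody (H3K4me3, H3K4me3Q5ser), and all regions of the region count table, of which 19534 of 19535 passed the filter on low counts. Each region's value is the mark-by-line interaction, the log2 change of H3K4me3Q5ser from empty vector to SLC6A4 minus the log2 change of H3K4me3, so that a positive value means that H3K4me3Q5ser gained more, or lost less, than H3K4me3. Another PC3 line with a DDC construct entered only the contrast named as such. The labels say neither which promoter drives the constructs nor whether the lines are pools or clones.

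Trimethylation of lysine 4 on histone H3 marks the start sites of transcribed genes. Serotonin taken up by SLC6A4, the serotonin transporter, can be attached by the transglutaminase TGM2 to glutamine 5 of the same histone tail, giving H3K4me3Q5ser. DDC is the decarboxylase that makes serotonin from its precursor. Both marks sit on the same tail, and the interaction asks whether one changed differently from the other.

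The H3K4me3 libraries held 3429743 to 5811084 estimated read pair counts in the regions, and the H3K4me3Q5ser libraries 19959269 to 24765332. Libraries of a group differed by little more than counting error: chi-square per degree of freedom between 2 libraries of a group was 0.99 to 1.11. The 3 empty-vector H3K4me3 libraries, replicates 1 and 3 of empty-vector H3K4me3Q5ser, and replicates 1 and 2 of both marks in SLC6A4 did not differ beyond sampling noise (chi-square p = 0.0776 to 0.797). With each such set counted as 1 sample, 7 samples and 3 residual degrees of freedom remained, and the calls given below were 2670 higher and 2848 lower. The test takes most of its variance estimate from all regions together (1024 prior against 8 residual degrees of freedom in the 12-library fit). Counting libraries once also keeps all their counts, so these calls are not a separate check of replication. Nothing in the labels says that libraries came from separate cultures, so all p-values measure only the spread between these libraries, which may be technical. In 5 regions the spread within groups went beyond counting error, 3 of them over exons of PRL. Inputs of the SLC6A4 line were not analysed here, so a copy-number or background change in that line cannot be told apart from a change of a mark. As a share of region counts, empty-vector H3K4me3 was at or under the empty-vector input in 11089 regions and H3K4me3Q5ser in 12195. Such shares rank the regions against each other. They cannot show whether a mark exceeded input over the genome, and comparisons with input below are on this scale.

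The line labels were checked on SLC6A4. Its RNA was 0, 0 and 0.89 normalised reads in the empty-vector libraries and 89.7, 112 and 133 in the SLC6A4 libraries. The table also holds 5 short regions over SLC6A4 exons, 156 to 344 bp long, and none at its start site. Over the exon at chr17:30221618-30221961 (GRCh38) H3K4me3Q5ser libraries held 10, 8 and 2 read pairs in empty vector and 144, 160 and 139 in SLC6A4, and H3K4me3 libraries 2, 3 and 7 against 20, 15 and 23. The interaction was higher at 4 of the 5, from 1.86 to 2.74 on the log2 scale; these regions were picked after their values were seen, lie outside the rule for named regions, and the part of construct DNA in them was not tested. PC3 identity was read from RNA: KRT8, a keratin of luminal epithelium, lay between 5855 and 8071 normalised reads in the 6 libraries, and KLK3 was listed at 0 in all 6. Of 11 genes of other cell types, ALB and CD3E were listed at 0 in all libraries, while HBB, a globin of red cells, was at 547 in 1 empty-vector library and 0 in the other 5, and PECAM1, an endothelial adhesion gene, went from 217 to 241 down to 35.3 to 52.3. The 11 genes summed to 420 to 947 in empty vector and 150 to 159 in SLC6A4; their part in the results was not tested.

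The following sequences show what kind of DNA the highest-ranked regions hold, with CpG dinucleotides, the sites of vertebrate DNA methylation, in capitals. The first 2 are the 300 bases before the annotated start site of NRP1 (chr10:33336263-33336562, minus strand) and ZNF615 (chr19:52008231-52008530, minus strand), and the third is the centre of the top-ranked TMPRSS2 region (chr21:41505467-41505766, minus strand), all from GRCh38 and free of annotated exons.
NRP1, interaction higher: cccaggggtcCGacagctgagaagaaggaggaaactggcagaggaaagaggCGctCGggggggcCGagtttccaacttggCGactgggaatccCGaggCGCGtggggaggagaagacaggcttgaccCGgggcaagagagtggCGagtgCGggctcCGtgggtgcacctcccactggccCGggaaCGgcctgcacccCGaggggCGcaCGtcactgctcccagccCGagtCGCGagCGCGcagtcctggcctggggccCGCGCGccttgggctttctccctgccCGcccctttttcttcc
ZNF615, interaction lower: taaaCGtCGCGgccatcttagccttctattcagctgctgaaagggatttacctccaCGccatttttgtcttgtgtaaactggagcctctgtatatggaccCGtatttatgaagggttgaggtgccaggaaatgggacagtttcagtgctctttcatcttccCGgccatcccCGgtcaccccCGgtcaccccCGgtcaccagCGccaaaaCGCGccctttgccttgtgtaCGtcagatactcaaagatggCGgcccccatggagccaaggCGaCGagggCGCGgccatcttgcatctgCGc
TMPRSS2, interaction lower: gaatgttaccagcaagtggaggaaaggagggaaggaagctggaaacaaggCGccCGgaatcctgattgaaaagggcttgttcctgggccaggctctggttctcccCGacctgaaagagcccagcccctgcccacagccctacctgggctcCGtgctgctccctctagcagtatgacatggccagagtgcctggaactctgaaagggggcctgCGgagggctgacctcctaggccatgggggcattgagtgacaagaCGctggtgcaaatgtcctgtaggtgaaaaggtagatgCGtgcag
The 2 start-site windows held 26 and 19 CpGs, and the TMPRSS2 window 7. Over the whole regions, CpG density was 20.001 per kb at NRP1, 15.97 at ZNF615 and 30.7 at TMPRSS2, beside a median of 23.2 over all regions.

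H3K4me3Q5ser and H3K4me3 moved together at most regions, and the interaction picked out the regions off that diagonal. With the edgeR quasi-likelihood test at an adjusted p under 0.05, the interaction was higher at 2780 regions (14.2%) and lower at 2869 (14.7%), 28.9% of regions in all. Scaling by library totals gave 1401 higher and 4645 lower, and removing the GC trend (below) 3612 higher and 1899 lower, so the split between directions rests on the scaling. Most called values were small. Only 118 of the higher regions (0.604%) and 1027 of the lower ones (5.26%) reached 1.5-fold, and 25 (0.128%) and 284 (1.45%) reached 2-fold. With the GC trend removed, 170 higher (0.87%) and 646 lower (3.31%) reached 1.5-fold, and 41 (0.21%) and 170 (0.87%) reached 2-fold. The 284 included 25 at a start site, 152 in gene bodies and 107 between genes, and they were short, with a median of 792.5 bp against 4023 bp over all regions. In empty vector H3K4me3Q5ser was at or under input at 277 of the 284 (97.5%) and H3K4me3 at 228 (80.3%), and H3K4me3Q5ser likewise at all 25 regions higher by 2-fold, at 1005 of the 1027 lower by 1.5-fold and at 84 of the 118 higher by 1.5-fold. Over all regions H3K4me3Q5ser was at or under input at 62.4%. The large changes thus lay mostly where its share of region counts did not exceed that of input. The part of background in them was not tested. Taken alone, H3K4me3Q5ser changed at 16162 regions (82.7%), of which 7882 rose (40.4%) and 8280 fell (42.4%). H3K4me3 changed at 11658 (59.7%), of which 5884 rose (30.1%) and 5774 fell (29.6%), with shallower libraries. Across the 19534 regions, which share libraries and base composition, Pearson's r between the 2 changes was 0.81.

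The calls came from several combinations of the marks' own changes. Of the 2780 higher regions, both marks rose at 1149 with H3K4me3Q5ser rising more, H3K4me3Q5ser rose alone at 799, both fell at 463 with H3K4me3 falling more, H3K4me3 fell alone at 204, and the marks moved in opposite directions at 158. Of the 2869 lower regions, both fell at 1236, H3K4me3Q5ser fell alone at 786, both rose at 334, H3K4me3 rose alone at 334, and 165 moved in opposite directions. By these classes a higher interaction came from a gain of H3K4me3Q5ser at some regions and from a loss of H3K4me3 at others. The classes keep the GC trend (below), which the changes of both marks followed. With that trend removed, H3K4me3Q5ser changed at 14475 regions (7902 rose, 6573 fell). H3K4me3 then changed at 7969 (3779 rose, 4190 fell). The classes were not remade from those fits.

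**Figure D1:**
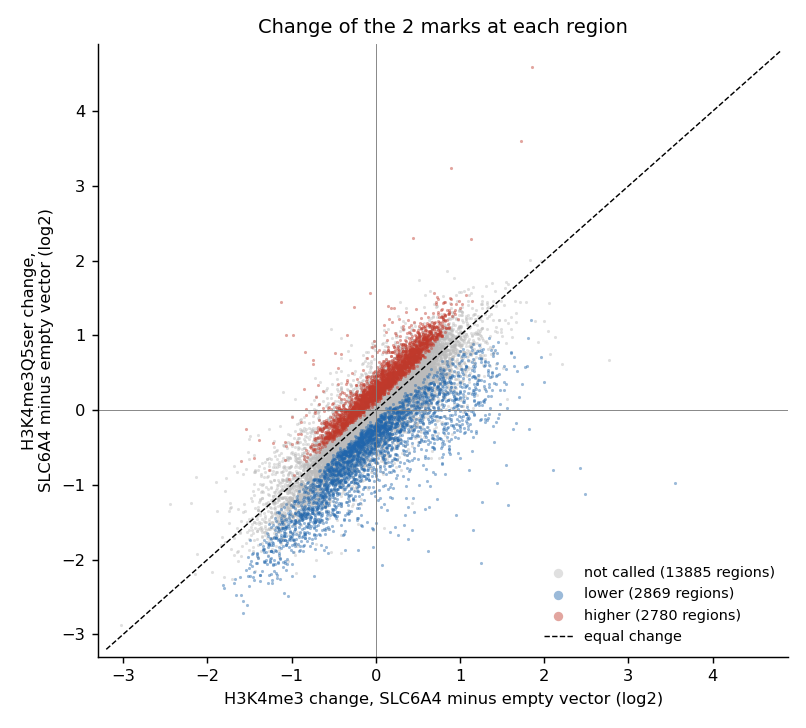
Log2 change of H3K4me3 (x axis) and of H3K4me3Q5ser (y axis) from empty vector to SLC6A4 at 19534 regions, 1 point each, coloured by the call of the interaction, with the line of equal change dashed. The cloud follows the diagonal (r = 0.81), the 2780 higher regions lie above it and the 2869 lower ones below; the point at an H3K4me3Q5ser change of 4.59 is a SLC6A4 exon and the one at an H3K4me3 change of 3.55 a PRL exon.

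GC content moved with all 3 measures. Single-mark changes at named regions, genes and gene lists are given with the GC trend kept. Spearman's rho with region GC across the 19534 regions was 0.71 for the H3K4me3Q5ser change, 0.67 for the H3K4me3 change and 0.29 for the interaction; after a smooth trend on GC was taken out of each library it was -0.01 for the interaction. Among regions under 35% GC, 1.14% were higher and 38.1% lower; with the trend removed these shares were 7.59% and 11.01%. Between 55 and 60% GC, 21.8% were higher and 6.81% lower, against 16.5% and 8.63% with the trend removed. In all, the fit without the trend called 3612 regions higher (18.5%) and 1899 lower (9.72%). The calls were largely the same regions on the higher side: 2573 of the 2780 stayed higher, 207 were no longer called, and 1030 were added. On the lower side 1788 of 2869 stayed lower, 1072 were no longer called and 9 turned higher. Removing a trend on abundance after that on GC gave 1966 higher and 2198 lower.

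Length and location set the 2 groups of regions apart in both fits. Higher regions had a median length of 8856 bp and 80.9% lay within 1000 bp of a protein-coding start site; lower regions had a median of 2638 bp and 38.1% lay at a start site, beside 4023 bp and 52.1% over all regions. With the GC trend removed the medians were 8912 and 2445 bp and the shares at start sites 80.8% and 39.3%. Of regions between 8000 and 16000 bp, 34.0% were higher and 8.32% lower, and of those between 1000 and 2000 bp, 1.37% and 21.1%. Regions with more reads were also called higher more often, 38.5% of those with a mean log2 CPM between 7 and 8 against 1.10% under 2. The median interaction ran the same way, from -0.25 under 500 bp to 0.09 between 8000 and 16000 bp.

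**Figure D2:**
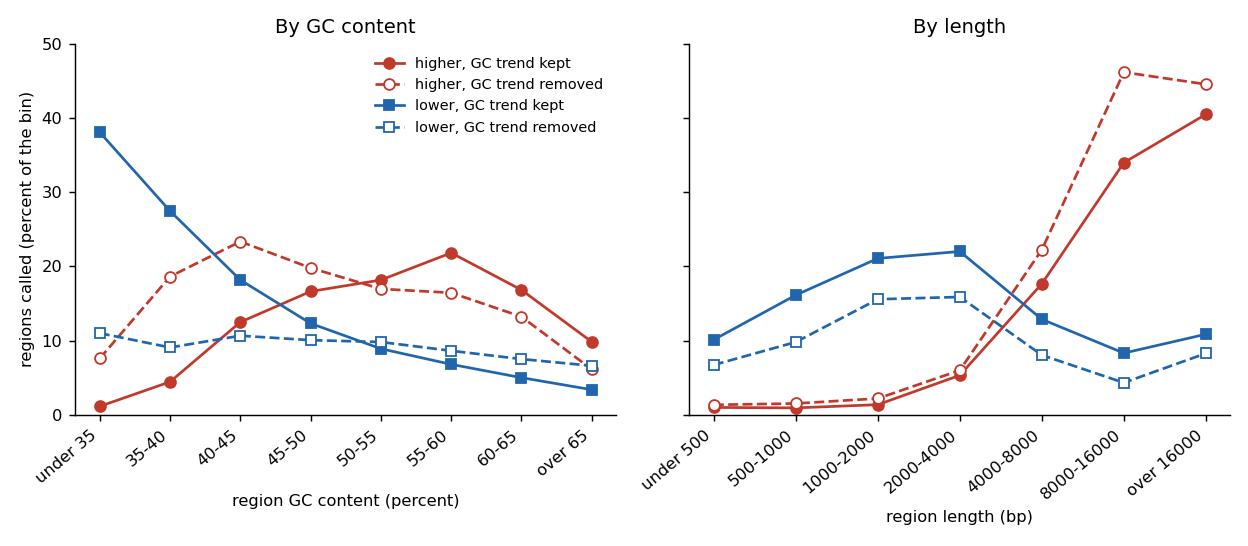
Percent of regions called higher (red) or lower (blue) for the interaction in bins of region GC content (left) and length (right), with the GC trend kept (filled) or removed (open). The excess of lower calls at low GC, 38.1% under 35% GC, falls to 11.01% once the trend is removed, while the rise of higher calls with length is in both fits.

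The 6 higher regions with the smallest adjusted p lay over NRP1 (neuropilin, a co-receptor for semaphorins and VEGF), TSC22D2, DKK1 (a secreted Wnt antagonist), SLIT2 (a secreted guidance cue of axons), the long noncoding gene MIR31HG and an intergenic stretch nearest to RPE65. By ChIP-seq H3K4me3 fell at all 6, while H3K4me3Q5ser fell less at TSC22D2, DKK1 and MIR31HG, rose at SLIT2 and near RPE65 and did not pass the test at NRP1. These single-mark changes keep the GC trend, and the 6 regions held 36.1 to 44.4% GC. Regions of 35 to 40% GC had median changes of -0.54 for H3K4me3 and -0.70 for H3K4me3Q5ser. Between 40 and 45% GC the medians were -0.23 and -0.26. Levels are CPM, region counts brought to a common library total and scaled by TMM (edgeR's correction for composition). At NRP1 (chr10:33325002-33343150) H3K4me3 was 1244, 1236 and 1228 in empty vector and 933, 927 and 926 in SLC6A4, while H3K4me3Q5ser was 1195, 1203 and 1205 against 1215, 1199 and 1184. Only H3K4me3 separated the lines there: its log2 change was -0.41, H3K4me3Q5ser did not pass (edgeR adjusted p = 0.684), and the interaction 0.41 ± 0.02 (SE; edgeR adjusted p = 1.38e-79). NRP1 RNA fell by 0.23 on the log2 scale (limma adjusted p = 0.00693). At SLIT2 (chr4:20249600-20260451) H3K4me3 was 141, 136 and 126 against 106, 108 and 104, and H3K4me3Q5ser rose from 139, 137 and 135 to 180, 178 and 176. The groups did not overlap for either mark, and the interaction of 0.71 ± 0.05 (SE; edgeR adjusted p = 2.51e-32) was the largest of the 6, with 0.64 ± 0.05 near RPE65 (chr1:68382301-68399375) next. At MIR31HG (chr9:21547974-21571959), 65661 bp from the nearest protein-coding start at IFNE, both marks fell, H3K4me3 by 0.93 and H3K4me3Q5ser by 0.42, with an interaction of 0.51 ± 0.04. TSC22D2 (0.47 ± 0.03) and DKK1 (0.36 ± 0.03) also lost both marks, H3K4me3 more; DKK1 RNA rose by 0.24 (limma adjusted p = 0.0197). Removing the GC trend raised all 6, to between 0.50 and 0.81. The fall of H3K4me3 at these 6 was not seen by CUT&Tag, described below, with 1 library a line and so no test. CUT&Tag was summed only over peaks outside the set called up, a part of each region, while ChIP-seq counts the whole. The regions at TSC22D2, SLIT2 and near RPE65 each overlap 1 peak of the up set, which that sum leaves out. The CUT&Tag log2 difference between SLC6A4 and control was 0.20 at NRP1, 0.24 at TSC22D2 and 0.10 at MIR31HG. It was 0.29 near RPE65, 0.16 at DKK1 and 0.18 at SLIT2, beside a median of 0.11 over all regions with CUT&Tag values.

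Among the higher regions with the largest change were 5 short, thin ones, with H3K4me3 levels of at most 12.6 CPM in any library. At NOC4L, whose product takes part in ribosome assembly, the region (chr12:132148864-132149965) held H3K4me3Q5ser at 3.94, 3.11 and 2.99 in empty vector and 9.18, 8.25 and 8.70 in SLC6A4, with H3K4me3 at 3.96, 1.78 and 3.42 against 2.78, 3.88 and 3.56. H3K4me3Q5ser rose without overlap while the H3K4me3 libraries of the lines overlapped, and the interaction was 1.19 ± 0.34 (SE; edgeR adjusted p = 0.00334). The other 4 lay before RAPGEF1 (1.15), at SMARCD3 (0.99), in HNRNPA2B1 next to CBX3 (0.98) and before PWWP2B (0.96). At 4 of the 5 H3K4me3Q5ser rose with no H3K4me3 change past the threshold; at HNRNPA2B1 both marks fell, H3K4me3 by 1.38 and H3K4me3Q5ser by 0.40. Empty-vector levels of both marks lay below those of input at NOC4L (6.41 to 10.4 CPM), RAPGEF1 (6.99 to 10.4) and HNRNPA2B1 (19.6 to 32.0), and above it at PWWP2B (0.545 to 1.75); at SMARCD3 (3.27 to 4.08) H3K4me3 lay above and H3K4me3Q5ser below.

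Among lower regions with the smallest adjusted p were a gene body of prostate epithelium and 2 regions of a zinc finger gene. In the TMPRSS2 gene body (chr21:41503158-41508075) H3K4me3 rose from 26.03, 20.5 and 24.9 to 43.8, 48.7 and 46.4, and H3K4me3Q5ser fell from 24.9, 20.5 and 23.8 to 16.2, 14.98 and 15.6. The marks went opposite ways with no overlap, giving an interaction of -1.54 ± 0.11 (SE; edgeR adjusted p = 3.95e-36). In empty vector both marks lay under the input of 29.2 to 34.7 CPM there, while H3K4me3 in SLC6A4 lay above it. Whether the reads of this gene body came from the marked chromatin of these cells was not tested. TMPRSS2 encodes a serine protease of prostate epithelium; its RNA did not pass 7.12 normalised reads in any library. All 6 regions in the gene were lower, from -1.54 to -2.04; all lie 23041 bp or more from its start site. A second one (chr21:41492221-41494581) held 245, 177 and 198 H3K4me3Q5ser read pairs in empty vector and 59, 58 and 64 in SLC6A4, with H3K4me3 at 16 to 28 and 31 to 47; the empty-vector means were 5.19 CPM for H3K4me3 and 8.78 for H3K4me3Q5ser, against 17.5 to 23.9 in input. ZNF615, a zinc finger gene, had 2 regions in the ranking, 1 over its start site (-0.74 ± 0.06) and 1 over its 3' exon next to ZNF350 (-1.20 ± 0.09). At the start site (chr19:52001686-52011832) H3K4me3 rose from 88.9, 100 and 101 to 162, 145 and 158 while H3K4me3Q5ser went from 89.5, 85.2 and 84.9 to 83.9, 84.1 and 80.1. A region spanning LIX1L, ANKRD34A and POLR3GL (-0.50 ± 0.04) and 1 on an unplaced contig (-0.60 ± 0.05) lost both marks, H3K4me3Q5ser more. A 291 bp region in CHEK2P2, a pseudogene whose reads can belong to its copies (-2.42), and a 715 bp region in ZNF432 near ZNF614 (-2.07) completed the regions with the largest change.

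The 3 most negative values in the named set, -4.52, -3.61 and -3.197, lay over PRL, the prolactin gene, and rest on single libraries. Over the exon at chr6:22287271-22287634 H3K4me3 read pairs were 12, 11 and 13 in empty vector and 17, 14 and 534 in SLC6A4, and H3K4me3Q5ser 384, 401 and 366 against 14, 12 and 498. Replicate 3 of each SLC6A4 mark stood apart from its other 2 libraries, and in the DDC line H3K4me3Q5ser held 474, 460 and 14. With a variance estimate robust to such regions the edgeR adjusted p was 0.263, 0.308 and 0.354. Without replicate 3 of SLC6A4 H3K4me3 the values were -1.003, 0.92 and -0.28, none of them past the threshold, and without replicate 3 of SLC6A4 H3K4me3Q5ser they were -8.17, -6.96 and -6.36. Short regions inside other genes and away from start sites were also lower, in ALK, a receptor tyrosine kinase (5 of 6 regions), RET, another (4 of 5), the polymerase gene POLE (4 of 9, 1 higher) and NOTCH2 (3 of 7, 1 higher). At the ALK region chr2:29220680-29221218, 88.9% exonic, H3K4me3Q5ser read pairs were 57, 51 and 59 in empty vector and 17, 8 and 15 in SLC6A4, with H3K4me3 between 5 and 14 in all 6 libraries. These genes were singled out after their values were seen, and the source of the reads over PRL and over these exons and introns was not tested.

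**Figure D3:**
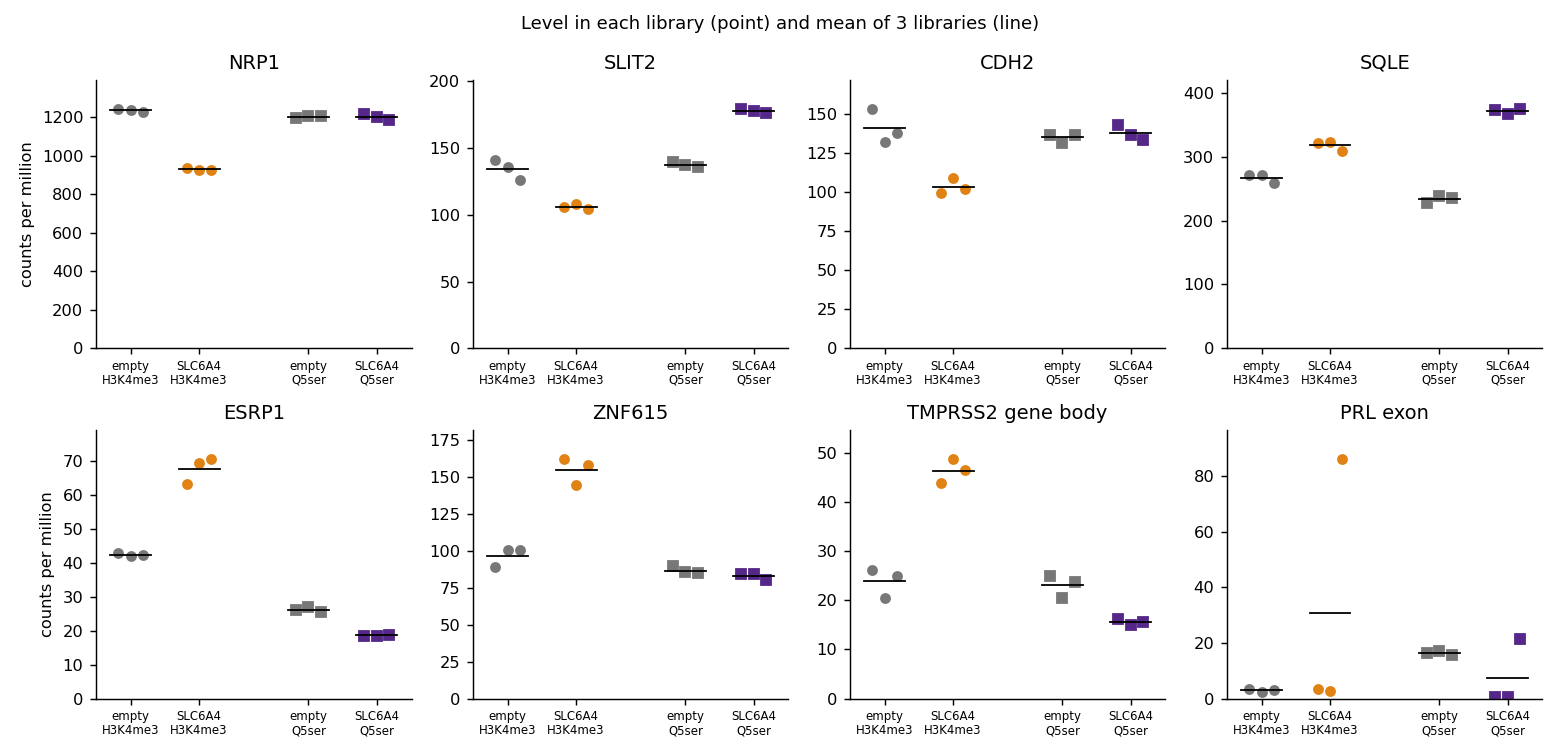
Level of H3K4me3 (circles) and H3K4me3Q5ser (squares, labelled Q5ser) in each library, in CPM on axes starting at 0, at 8 named regions, with the mean of 3 libraries as a line; grey is empty vector and colour is SLC6A4. NRP1 and CDH2 show H3K4me3 falling beside a level H3K4me3Q5ser, SLIT2 and SQLE a gain of H3K4me3Q5ser, ESRP1, ZNF615 and TMPRSS2 a gain of H3K4me3 without one of H3K4me3Q5ser, and PRL the single libraries at 86.3 and 21.4.

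Gene lists are described by their counts and medians beside all regions, and beside the 10168 regions at start sites, of which 22.1% were higher and 10.7% lower; over all 13264 genes tested for RNA (limma), 10.2% rose and 9.28% fell. Mesenchymal markers were mostly higher. Of 9 mesenchymal marker regions 6 were higher and none lower. The median interaction of the 9 was 0.35, against 0.05 over regions at start sites and -0.01 over all regions. The 6 were CDH2 (N-cadherin, 0.47 ± 0.06), VIM (the intermediate filament vimentin, 0.42 ± 0.08), the transcription factors ZEB1 (0.41 ± 0.07), SNAI2 (0.35 ± 0.06) and TWIST1 (0.24 ± 0.06), and the receptor tyrosine kinase AXL (0.37 ± 0.08). At CDH2 H3K4me3 fell from 154, 132 and 138 to 99.6, 109 and 102 while H3K4me3Q5ser was 137, 132 and 137 against 143, 137 and 134. H3K4me3 fell at 4 of the 6 (CDH2, ZEB1, SNAI2, TWIST1), and H3K4me3Q5ser alone or both marks rose at VIM and AXL. RNA rose for 4 of the 5 of them tested, by 1.36 for AXL, 0.70 for SNAI2, 0.44 for CDH2 and 0.36 for VIM, and was 0.23 for ZEB1 (limma adjusted p = 0.41). FN1, the matrix protein fibronectin, was not called for the interaction while its RNA fell by 1.84. RNA of TGFBI, a list member without a region at its start, also fell, by 1.26 (limma adjusted p = 0.00307).

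Of 11 luminal epithelial regions 3 were lower and 1 higher, and 5 were lower with the GC trend removed. The 3 were ESRP1 (a splicing regulator of epithelial isoforms, -1.17 ± 0.09), GRHL2 (a transcription factor of epithelia, -1.05 ± 0.10) and CDH1 (E-cadherin, -0.97 ± 0.19). At ESRP1 H3K4me3 rose from 42.9, 42.0 and 42.2 to 63.3, 69.3 and 70.5 while H3K4me3Q5ser fell from 25.9, 26.9 and 25.5 to 18.5, 18.5 and 18.7, so neither mark overlapped between lines and they moved in opposite directions. ESRP1 RNA fell by 1.28 (limma adjusted p = 0.00331) and CDH1 RNA by 1.17 (0.001); GRHL2 RNA, 8.43, 11.2 and 6.23 against 2.86, 0.93 and 6.14, was too low for a test. KRT19, a simple epithelial keratin, shares a higher region with KRT15 (0.45 ± 0.08), and its RNA fell by 0.24. The regions at CLDN3 and CLDN7, tight junction genes, passed only with the GC trend removed (-0.43 and -0.10). Basal markers had 3 of 6 regions higher and none lower: the KRT15 region, DST (0.17) and ITGA6 (0.16). With the abundance trend removed only KRT15 kept its call (edgeR adjusted p = 0.200 for DST and 0.279 for ITGA6), and with matching libraries counted once ITGA6 had an edgeR adjusted p of 0.0577.

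In cholesterol synthesis, part of the list was higher and most of its RNA rose. Of 15 regions 7 were higher and 1 lower (median 0.12). Higher were, among others, SQLE (squalene epoxidase, 0.42 ± 0.04), INSIG1 (a sterol sensor of the endoplasmic reticulum, 0.41 ± 0.08), SREBF2 (the transcription factor of the pathway, 0.36 ± 0.09), MVD and IDI1 (enzymes of the pathway), with the kinase gene PMVK lower (-0.21 ± 0.07). At SQLE H3K4me3Q5ser rose from 227, 239 and 235 to 374, 367 and 376 and H3K4me3 from 272, 272 and 259 to 322, 324 and 310. RNA rose for 13 of the 15, among them 6 of the 7 higher ones, by 0.99 for SQLE and 1.14 for INSIG1. It also rose for 6 of the 7 whose interaction was not called, so the list's RNA rise was not limited to the regions where the marks parted.

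Hypoxia and glycolysis genes had higher interactions beside lower RNA. Of 11 regions 8 were higher and none lower (median 0.25), led by VEGFA (the angiogenic growth factor, 0.54 ± 0.07), BNIP3 (a mitochondrial protein of hypoxia, 0.47 ± 0.08) and ENO1 (the glycolytic enolase, 0.37 ± 0.06). At VEGFA H3K4me3Q5ser rose from 99.5, 98.8 and 102 to 193, 191 and 199 and H3K4me3 from 64.2, 63.2 and 70.7 to 87.0, 86.9 and 91.6. RNA fell for 8 of the 11 and rose for none, by 0.94 for VEGFA and 0.79 for BNIP3, and was 0.06 for ENO1 (limma adjusted p = 0.524). Immediate early genes had 6 of 9 regions higher and 1 lower, or 5 and 3 with the GC trend removed: at MYC (0.48 ± 0.04) H3K4me3Q5ser rose from 272, 269 and 270 to 384, 382 and 381 beside H3K4me3 of 217, 221 and 201 against 208, 216 and 220, and at JUN (0.56 ± 0.06) from 125, 121 and 123 to 171, 169 and 166. MYC RNA fell by 0.38. FOS, the partner of JUN in AP-1, was lower (-0.41 ± 0.11), and its RNA fell by 2.14.

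Lists of growth genes had more higher than lower regions, as did start sites as a whole (22.1% and 10.7%). The lists were not matched to other start sites for region length or depth. Cytosolic ribosomal protein genes had 13 of 21 regions higher and none lower (median 0.24), with H3K4me3Q5ser rising at all 21 and H3K4me3 at 11; RPL13 (0.59 ± 0.08) and RPL10A (0.51 ± 0.07) led, and RNA rose for 6 and fell for 1. G1/S and replication genes had 6 higher and 1 lower of 16, with RRM2, a subunit of ribonucleotide reductase, at 0.26 ± 0.06 and the cyclin gene CCNE2 at -0.22 ± 0.05, and RNA rose for 9 and fell for none. G2/M genes had 6 higher of 15 and none lower, among them BIRC5 (survivin, 0.41 ± 0.07, RNA up by 0.74) and CDK1 (0.24 ± 0.03), where both marks fell and RNA was -0.06 (limma adjusted p = 0.686). Genes that write, erase or read H3K4 methylation had 8 higher and 1 lower of 20: the demethylases KDM5B (0.26 ± 0.05) and KDM1A (0.28 ± 0.06) and the methyltransferase KMT2B (0.46 ± 0.10) were higher and DPY30, a subunit of the methyltransferase complexes, lower (-0.21 ± 0.07). KDM5B RNA fell by 0.80.

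In the stress and cytokine lists most calls were higher, as they were at start sites as a whole (22.1% higher and 10.7% lower). Unfolded protein response genes had 5 of 11 higher and none lower (7 with the trend removed), led by the chaperone HSP90B1 (0.23 ± 0.05), whose RNA fell by 0.47. ATF4 target genes had 3 of 12 higher, CEBPB (0.54 ± 0.06), ATF4 (0.34 ± 0.08) and SLC3A2 (0.12 ± 0.03; edgeR adjusted p = 0.407 with the abundance trend removed). NF-kB and cytokine genes had 4 higher and 3 lower of 12, but 5 higher and none lower without the GC trend: the chemokine gene CXCL8 went from -0.29 ± 0.07 to 0.11 (edgeR adjusted p = 0.21). TNFAIP3, an inhibitor of NF-kB, was higher in both (0.40 ± 0.06), as was CXCL3 (0.20 ± 0.04), where H3K4me3 fell by 0.62, H3K4me3Q5ser by 0.42 and RNA by 1.96. HOX genes had 2 higher and 3 lower of 13 regions, the largest being HOXD13 (-0.42 ± 0.09) and HOXB9 (-0.34 ± 0.05). None of the 3 metallothionein regions was called.

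Few regions lay at genes of the neuroendocrine and serotonin pathways. None of the 4 neuroendocrine marker regions was called, and ENO2, the neuronal enolase, was at 0.20 with its RNA falling by 0.79. RNA of SCG5, a secretory granule chaperone with no region at its start, went from 30.6, 44.7 and 40.03 normalised reads to 95.4, 101 and 115, a rise of 1.42 on the log2 scale (limma adjusted p = 1.0e-05). CHGB and INSM1 were listed at 0 RNA in all 6 libraries. Of 5 neural and lineage-plasticity factors FOXA2 (0.40 ± 0.05) and EZH2 (0.23 ± 0.06) were higher, with no RNA change past the threshold. Of 6 regions at androgen-response genes PMEPA1 was higher (0.22 ± 0.06) and FKBP5 lower (-0.51 ± 0.16; edgeR adjusted p = 0.118 with the abundance trend removed). In the serotonin and tryptophan list 2 of 5 were lower: MAOA, the monoamine oxidase that breaks serotonin down (-0.36 ± 0.12; edgeR adjusted p = 0.0604 with the abundance trend removed), and KMO, an enzyme of the competing kynurenine branch (-0.44 ± 0.07, and -0.12 with adjusted p = 0.183 in edgeR without the GC trend). TGM2 itself was not called, at 0.02 ± 0.08 (edgeR adjusted p = 0.887): H3K4me3 was 62.3, 62.0 and 57.1 against 70.4, 68.5 and 65.1 and H3K4me3Q5ser 45.5, 43.5 and 43.6 against 51.3, 49.5 and 50.4, and both rose, by 0.17 (edgeR adjusted p = 0.0251) and 0.19 (edgeR adjusted p = 6.69e-07). TGM2 RNA rose from 20834, 19823 and 18968 to 32534, 33440 and 32542 normalised reads. DDC and SLC6A4 have no region at their start sites. Of the 2 regions at genes of other cell types, MBP was higher (0.48 ± 0.06) and COL1A1 was not called.

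**Figure D4:**
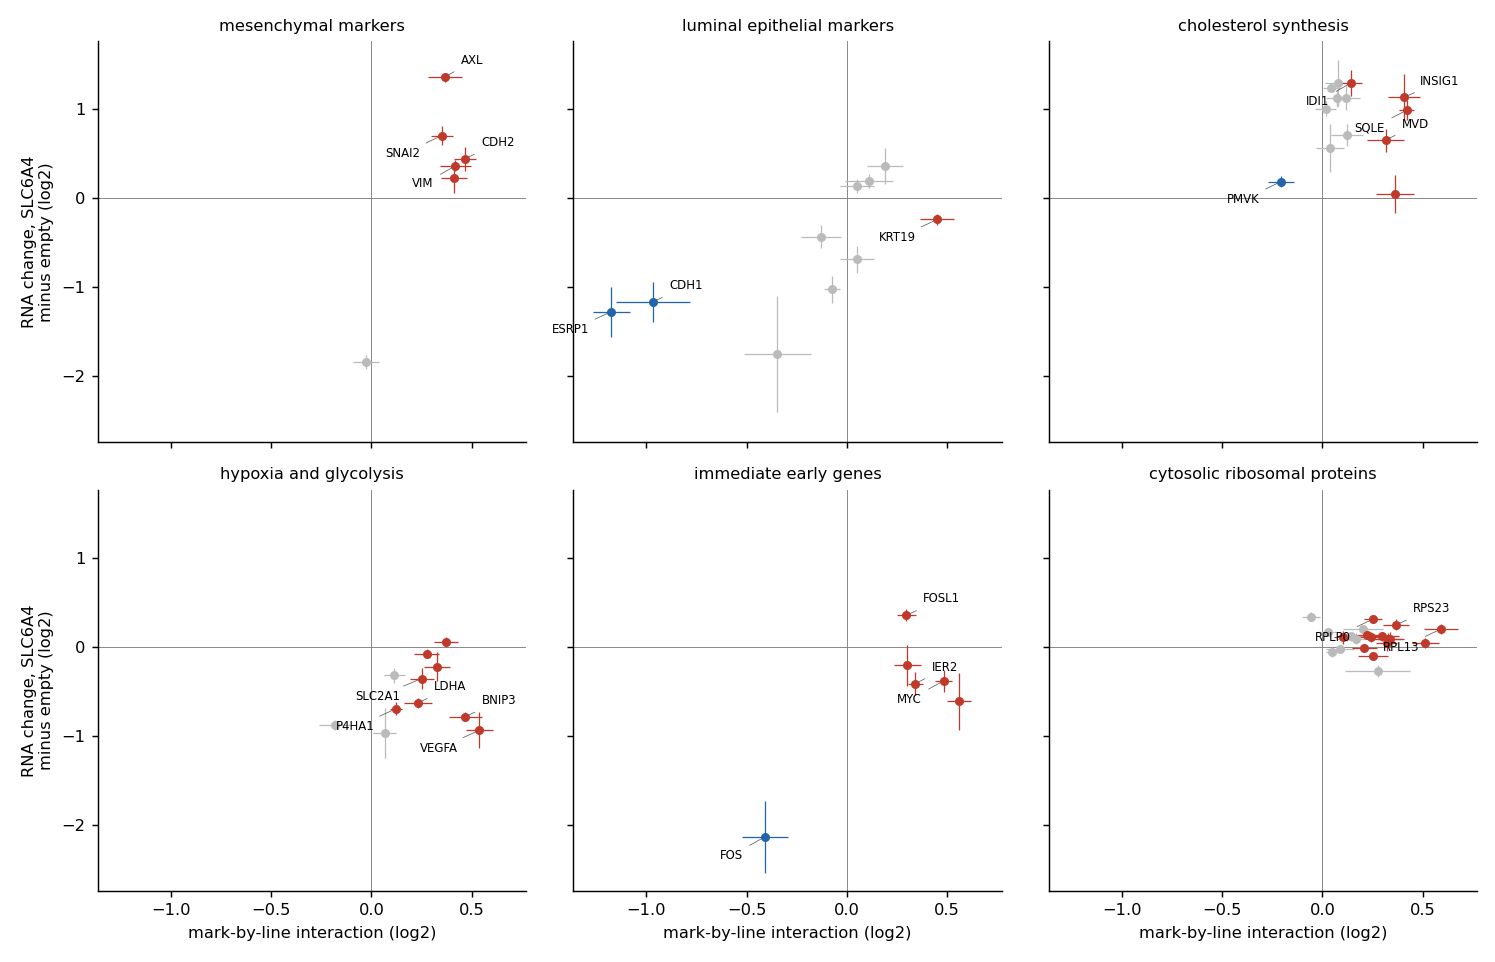
Mark-by-line interaction at the gene's region (x axis, log2) against the RNA change (y axis, log2), both SLC6A4 against empty vector, for members of 6 gene lists, with standard errors as bars; red is higher, blue lower, grey not called, and names are given where the RNA change also passed. Most cholesterol genes lie to the upper right, most hypoxia and glycolysis genes to the lower right, and ESRP1 and CDH1 to the lower left.

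Zinc finger genes of chromosome 19 were picked out after their values were seen and are described only. Many KRAB zinc finger genes, which encode transcriptional repressors, lie there in clusters. Of 416 regions in or at a ZNF gene on chromosome 19, 279 (67.1%) were lower and 5 higher, with a median interaction of -0.50. Of 348 at ZNF genes on other chromosomes 54 were lower and 35 higher (median -0.04), and of the other 1159 regions of chromosome 19 169 were lower and 175 higher. The median change over the 416 was 0.81 for H3K4me3, which rose at 367 and fell at 3, and 0.27 for H3K4me3Q5ser, which rose at 245 and fell at 56 (edgeR adjusted p under 0.05). Summed over them, H3K4me3 was 13458, 13656 and 13520 CPM in empty vector and 22022, 22113 and 22130 in SLC6A4, and H3K4me3Q5ser 13768, 13776 and 13717 against 18022, 18092 and 18128. Every SLC6A4 library lay above every empty-vector library, and the gap was wider for H3K4me3. With the GC trend removed 246 were still lower (median -0.42). In empty vector the sums lay under those of the input, 16609 to 16679. As a share of region counts, H3K4me3 did not exceed input at 336 of the 416 regions. The part of background in this result was not tested. RNA of 119 ZNF genes with a region there rose for 1 and fell for 3.

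Against the DDC line the interaction of SLC6A4 was higher at 1701 of 19515 regions (8.72%) and lower at 1133 (5.81%), 14.5% in all (edgeR adjusted p under 0.05), and of the 416 regions of chromosome 19 269 were lower and 0 higher, with a median difference of -0.48. The SLC6A4 libraries are the same in both contrasts and the 416 were picked with their values seen, so this is not an independent check.

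**Figure D5:**
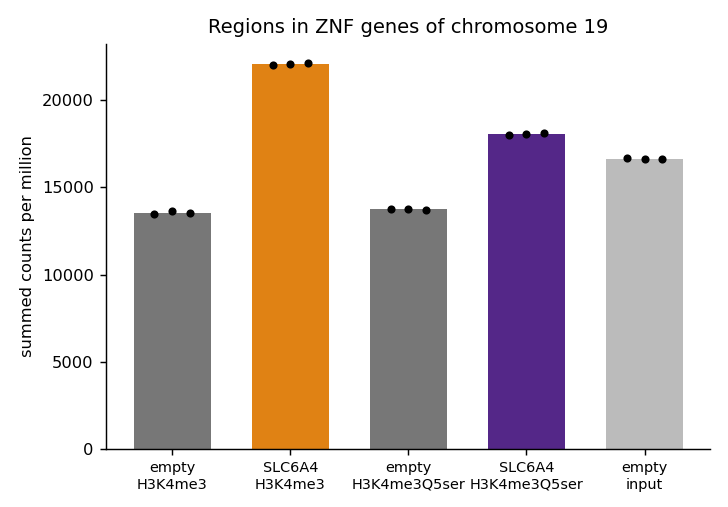
Summed CPM over the 416 regions in or at ZNF genes of chromosome 19, as bars for the mean of 3 libraries and points for each library, on an axis from 0. H3K4me3 libraries go from at most 13656 to at least 22022 and H3K4me3Q5ser libraries from at most 13776 to at least 18022, with empty-vector input between 16609 and 16679.

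RNA was set beside the interaction at start sites. Over 9781 genes with a region at the start and an RNA test, Spearman's rho between interaction and RNA change was 0.09. Of 2461 genes at higher regions RNA rose for 370 and fell for 214, and of 910 at lower regions it rose for 60 and fell for 135; over all 9781 it rose for 1080 and fell for 878. Among the 51 genes at regions lower by 1.5-fold or more RNA fell for 20 and rose for 1, and among the 6 past 2-fold it fell for 4. Of 24 genes at regions higher by 1.5-fold it rose for 2 and fell for 3. H3K4me3 measured separately by CUT&Tag, with 1 library of SLC6A4 and 1 of control and so no test, was summed over the deposited list of peaks outside the set called up, at 9808 regions. The median log2 difference was 0.17 at the higher regions, -0.03 at the lower and 0.11 over all, while the ChIP-seq H3K4me3 change at the same regions had medians of 0.03, -0.13 and 0.00. Across the 9808 regions the CUT&Tag difference followed the ChIP-seq H3K4me3 change only weakly, with a Spearman's rho of 0.10. Its rho was 0.25 with the H3K4me3Q5ser change and 0.37 with the interaction. Peaks deposited as up in CUT&Tag overlapped 854 of the 2780 higher regions (30.7%) and 64 of the 2869 lower ones (2.23%), beside 9.91% of all; higher regions were also longer, and the part of length in this overlap was not tested.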

How the data were processed

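ChIP-seq counts in each region are estimated counts of read pairs that the authors made with featureCounts 2.0.3 after removing duplicates, per the file headers, with multi-mapping and overlapping pairs shared as fractions and a strand setting on regions that carry no strand. They were rounded to whole numbers here. RNA values are normalised signal the authors deposited from DESeq2; 100% were whole reads after rescaling (tolerance 1e-06; 17284019 to 21222490 reads a library). CUT&Tag values are CPM (counts scaled to library size) as deposited by the authors, 1 library a condition. Peak lists hold positions only, an other kind of value, as deposited. Per the submitters' processing notes the tools were HISAT2 2.1.0, Bowtie2, MACS2, HOMER, FastQC, featureCounts and DESeq2, on GRCh38; their roles are not given in the sources used here.

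The interaction was tested with edgeR 4.0.16 quasi-likelihood (TMM scaling, Benjamini-Hochberg, adjusted p under 0.05). The dispersion was set to 0 after the data were seen, since the estimate (9.77e-05) lay at the bottom of edgeR's search range, leaving spread to the quasi-likelihood term; the estimated dispersion is an alternative. The GC trend was removed by a loess offset per library (span 0.4, prior count 0.5). RNA was tested with limma 3.58.1 on log2(value + 1), for genes at 10 or more in 3 libraries; fold changes are on that scale, which understates low genes. R 4.3.3 and Python 3.11.15 were used. The fits were tested on simulated data.

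Named regions were, among called regions with a mean log2 CPM of 2 or more, the 6 with the smallest adjusted p and the 6 with the largest change in each direction, plus TGM2, DDC, SLC6A4 and up to 3 members of each of 21 gene lists by adjusted p; other list members are named for their call. Some of these are not reported here. The comparison and the lists were chosen with earlier results of these data known. A gene's region is the one within 1000 bp of its protein-coding start. Input of the SLC6A4 line was not analysed here.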

Additional observations from a re-analysis of the deposited data

Results flagged for a closer look

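The interaction of SLC6A4 was also compared directly with that of DDC, over the 12 H3K4me3 and H3K4me3Q5ser libraries of those lines and without the empty-vector libraries. What follows differed between the 2 lines by that test (edgeR quasi-likelihood, adjusted p under 0.05). The SLC6A4 libraries are the same as in the comparison with empty vector. For regions chosen by their values in that comparison, the test is therefore not an independent check. The interaction was higher in SLC6A4 than in DDC at 1701 of 19515 regions (8.72%) and lower at 1133 (5.81%), 14.5% in all; with the GC trend removed the counts were 2424 and 884. Differences below are log2, SLC6A4 minus DDC.

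Among regions chosen by adjusted p or size of change, SLC6A4 was higher at NRP1 (0.37), TSC22D2 (0.46), MIR31HG (0.52), near RPE65 (0.40), DKK1 (0.30) and SLIT2 (0.57), and lower at the 2 TMPRSS2 regions (-0.96 and -0.89), the 3' exon of ZNF615 (-0.95), its start site (-0.53), LIX1L (-0.30), CHEK2P2 (-1.53) and ZNF432 (-1.14). The 3 PRL regions (-4.67, -4.27 and -3.48) hold libraries that stand apart from their group, replicate 3 of each SLC6A4 mark among them. Of the 416 regions at ZNF genes of chromosome 19, 269 were lower than in DDC and 0 higher.

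Mesenchymal genes were higher in SLC6A4 than in DDC at CDH2 (0.42), SNAI2 (0.42) and ZEB1 (0.40), as was DST of the basal list (0.24). ESRP1 (0.45) and GRHL2 (0.45), whose interaction was lower against empty vector, were higher against DDC, as was the HOXB9 region (0.41), so the sign there depends on the line compared. TGM2, not called against empty vector, was higher than in DDC by 0.48.

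Higher values were also found at SQLE (0.40) and INSIG1 (0.36) of cholesterol synthesis, at BNIP3 (0.34), VEGFA (0.22) and ENO1 (0.19) of hypoxia and glycolysis, at JUN (0.52) and MYC (0.35), at TNFAIP3 (0.38) and CXCL3 (0.38), and at CEBPB (0.22) and HSP90B1 (0.17) of the stress lists. Growth and chromatin genes were CDK1 (0.28), RRM2 (0.27), RPL13 (0.27), KDM1A (0.24), BIRC5 (0.22) and RPL10A (0.20). FOXA2 (0.16), PMEPA1 (0.24) and MBP (0.31) were higher as well, and the metallothionein genes MT2A (0.23) and MT1X (-0.53) went opposite ways.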

How the results depend on the processing

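The counts of called regions and genes stayed within 1.5 times their value under every alternative run. Leaving out each library in turn gave 4733 to 5631 calls for the interaction, 4653 to 5357 without the GC trend, 15640 to 15744 for H3K4me3Q5ser, 10735 to 11061 for H3K4me3, 2328 to 2750 against DDC and 1929 to 2359 for RNA. The interaction had 5755 calls with the estimated dispersion, 4854 without the abundance trend, 4932 with DESeq2, 5615 with limma-voom, 5139 at a mean of 50 or more in every group and 4318 over regions with whole counts only. The estimated dispersion, robust variance, whole counts only, matching libraries counted once and edgeR on recovered RNA reads (2594 calls) were chosen after seeing the data.

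Of the 82 named regions, 8 lost and 1 gained a call without the abundance trend, 6 lost and 4 gained one with library size scaling, and 10 lost and 2 gained one with GC and then abundance trends removed. A PRL region went from -3.61 to 0.92 (0.86 without the GC trend) without replicate 3 of SLC6A4 H3K4me3, and to -6.96 (-7.00) without replicate 3 of SLC6A4 H3K4me3Q5ser. CXCL8 was 0.11 with the GC trend removed. The HOXA region was -0.000102 with library size scaling, and with GC and then abundance trends removed it was -0.067, the CALR region -0.045 and the SLC3A2 region -0.0055; the cause was not tested. Same-numbered libraries correlated at -0.0086 to 0.099, so the numbers were not treated as a pairing. The highest value was that of replicate 3 of both marks in SLC6A4. Replicate 3 of a mark there correlated at -0.064 to -0.039 with other numbers of the other mark, and the source of this was not tested. With a replicate block 5687 (culture), 5651 (number) and, without the GC trend, 5502 regions were called, with CXCL8 at 0.11 and KMO at -0.12, as without the block. The block alone changed no call of a named region. Blocked counts were 16145 for H3K4me3Q5ser, 11591 for H3K4me3, 2948 against DDC and 2497 for RNA. The planned input comparison was not run, since SLC6A4 inputs were not analysed here. Calls were fewest at low depth: under a mean log2 CPM of 2, 1.10% of 2550 regions were higher and 6.55% lower, against 3.08% and 24.4% between 3 and 4; the part of depth in this was not tested.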
